A study of Mus musculus with 24 samples.

Results

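The comparison described here asks which genes changed differently between neural progenitor cells (NPCs) and neurons according to the speed of RNA polymerase II. It rests on 12 of the 24 samples of the series, 3 for each combination of stage and genotype, and its members were the columns of read counts labelled NPC or MN in either genotype. For each gene, the log2 change from NPCs to neurons in wild-type (WT) cells was subtracted from the same change in mutant cells, and this difference of differences is called the interaction. A positive interaction means that a gene rose more, or fell less, in the mutant. The mutant cells, called slow/slow, carry the genotype Polr2a[R749H/R749H], an arginine-to-histidine substitution on both alleles of *Polr2a*, which encodes the largest, catalytic subunit of the polymerase, and the WT cells carry wt/wt.

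The slow/slow embryonic stem cells (ESCs) had been made from the WT parental line by targeting each allele in turn, and no further clones are described in the sources used here, so clone and genotype cannot be told apart. Both lines were differentiated towards the neural fate in culture. NPCs were collected at day 7 of differentiation, and neurons had been replated at day 7 and grown for 14 more days. The labels of the NPC samples give starting densities of 10000 WT cells and 30000 slow/slow cells per cm2, so plating density and genotype cannot be told apart there. The study's methods describe 3 independent differentiation experiments.

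Neural progenitors made from ESCs first shut down the pluripotency network and then, as they leave the cell cycle, switch on genes for the cytoskeleton of axons and dendrites, for synapses and for ion channels. Signals such as retinoic acid, Wnt and Sonic hedgehog set the position along the body axis that a progenitor takes. RNA polymerase II transcribes all of these genes, and long genes, which are common among synaptic genes, take longer to transcribe than short genes.

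The 12 libraries held between 32974432 and 104466886 counts, and libraries of a group correlated at 0.994 to 0.997. Levels are given as CPM (read counts relative to the size of the library, scaled by TMM), which are not divided by gene length, so levels are compared between samples and not between genes. A gene was called when the FDR, the adjusted p of edgeR's quasi-likelihood test over all genes, was under 0.05. *Polr2a* stood at 277, 335 and 306 CPM in WT NPCs and at 380, 364 and 380 CPM in slow/slow NPCs. In neurons it stood at 307, 330 and 332 CPM in WT cells and at 176, 170 and 158 CPM in slow/slow cells, so the genotypes did not overlap at either stage, although the difference in NPCs was not called. Its interaction was -1.24 ± 0.23 (log2, SE, FDR 0.000158). The counts do not separate alleles and therefore do not check the genotype labels. Other named genes that overlap a neighbouring gene, and whose values are uncertain to that extent, are *Gabra5*, *Ina*, *Ptbp1*, *Neurod1*, *Six6*, *Irf7*, *Irf9*, *Tagln*, *Rpl15*, *Rpl24*, *Atf5* and *Polr2c*. Against the labelled cell types, the pluripotency gene *Nanog* was still at 380 to 387 CPM in WT NPCs and 119 to 142 CPM in slow/slow NPCs, and the proliferation gene *Mki67* was at 60.8 to 78 CPM in WT neurons and 136 to 174 CPM in slow/slow neurons. Median log2 levels of 5 Y-linked genes were lower in slow/slow cells by 7.30 in NPCs and 5.08 in neurons (log2 differences of -7.30 and -5.08), and those of chromosome 8 genes were higher by 0.49 and 0.44.

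In all, 9161 of 16627 genes tested had an interaction, which is 55.1%. They comprised 4112 positive and 5049 negative interactions, and 7627 of them were called in each of 12 fits that left out a single library. With upper-quartile scaling in place of TMM the split was 5084 positive to 3786 negative, and the median interaction of all genes moved from -0.087 to 0.097. Interactions within about that shift therefore depend on the scaling for their sign. Changes in level between the stages were more widespread. In WT cells 41.4% of genes rose and 38.9% fell, and in slow/slow cells 38.4% rose and 36.6% fell.

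Genes of chromosome 15 moved as a block and are set apart from all that follows. Their median interaction was 0.42 over 639 genes tested, and 293 were positive and 79 negative. In NPCs they were lower in slow/slow cells, with a median log2 difference of -0.57, and in neurons the median difference was -0.08. The medians of the other autosomes lay between -0.31 for chromosome 18 and 0.03 for chromosomes 7 and 17.

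Outside chromosome 15, 8789 genes had an interaction. Of 15988 genes tested there, 23.9% were positive and 31.1% negative, and the counts of list members below are read against these shares. Counts of members that differed between genotypes are read against the shares of all genes tested. In NPCs 29.3% of all genes were higher in slow/slow cells and 27.4% lower, and in neurons 23.4% were higher and 28.4% lower. The most frequent pattern among negative genes was a rise in both genotypes that was smaller in slow/slow cells, with 2154 of 4970 genes. A further 982 rose in WT cells without a called change in slow/slow cells, 711 fell in slow/slow cells without a called change in WT cells, 590 fell in both genotypes but more in slow/slow cells, and 506 rose in WT cells and fell in slow/slow cells. Among 3819 positive genes, 1406 fell in both genotypes but less in slow/slow cells, 903 fell in WT cells without a called change in slow/slow cells, 541 rose in slow/slow cells alone by this threshold, 437 rose in both but more in slow/slow cells, and 511 fell in WT cells and rose in slow/slow cells. An interaction can arise at either stage. The genotypes differed in NPCs and not by this threshold in neurons for 1661 negative and 1222 positive genes. They differed in neurons and not by this threshold in NPCs for 1277 negative and 1060 positive genes. At both stages, in opposite directions, they differed for 1458 negative and 1119 positive genes.

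**Figure D1:**
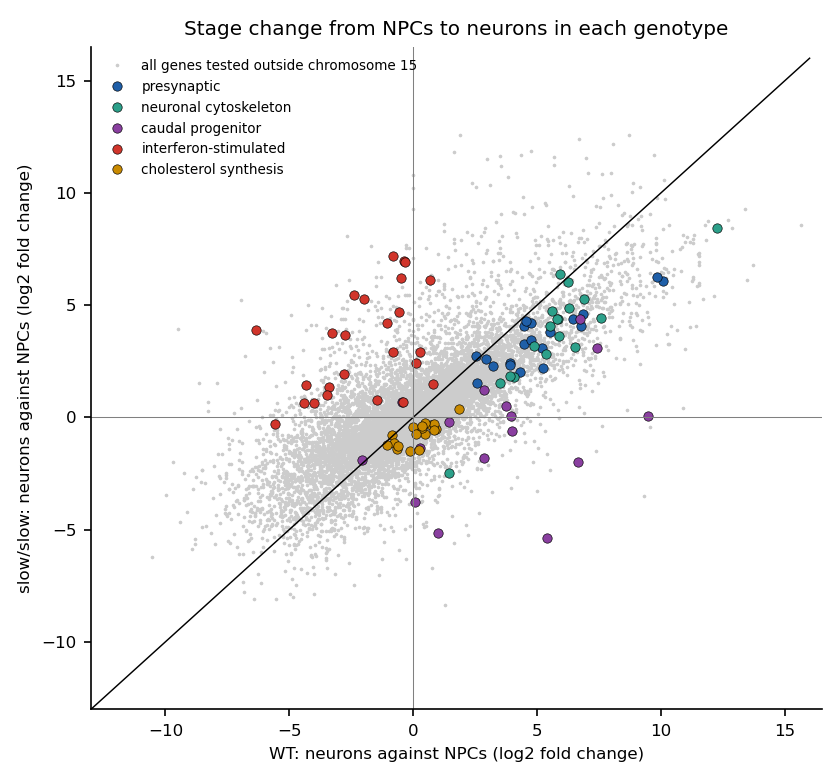
Log2 change from NPCs to neurons in slow/slow cells (vertical axis) against the same change in WT cells (horizontal axis), 1 point per gene tested outside chromosome 15, with the line of equal change. Of 20 synaptic vesicle genes 16 were called under the line, as were 14 of 16 caudal genes, and 23 of 25 interferon-stimulated genes were called above it.

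**Figure D2:**
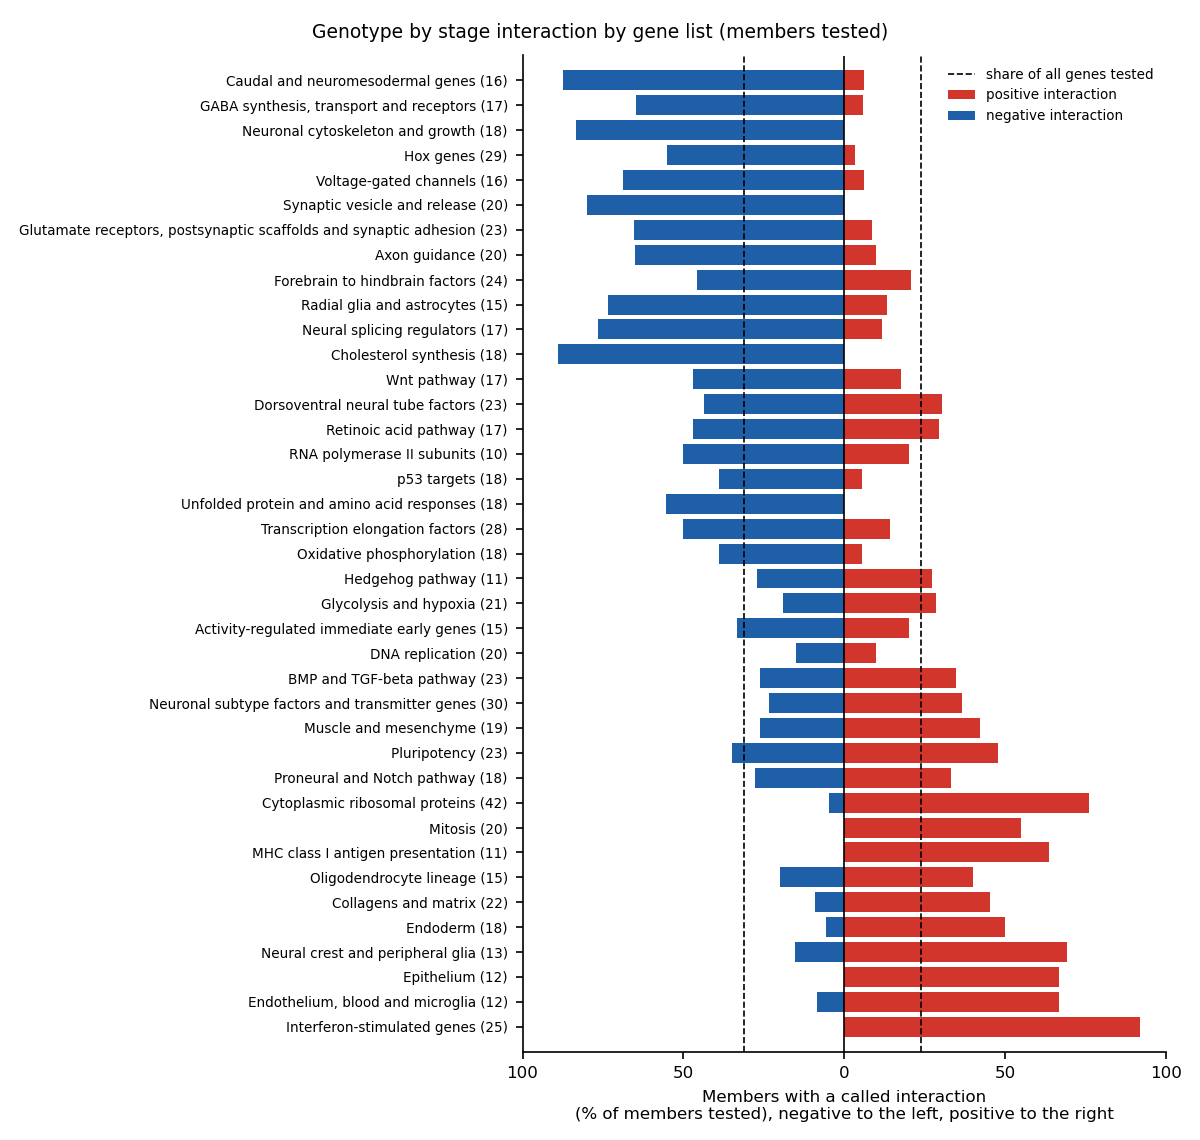
Share of the tested members of each gene list with a negative interaction (blue, to the left) and a positive interaction (red, to the right), in percent, ordered by the median interaction of the list. The dashed lines mark the shares of all genes tested outside chromosome 15, 31.1% negative and 23.9% positive.

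Genes of the presynaptic terminal were switched on in both genotypes, and less in slow/slow cells. All 20 members of the list rose in each genotype, with median log2 changes of 4.65 in WT and 3.34 in slow/slow cells. Of these 20, 16 had a negative and 0 a positive interaction, with a median of -1.53. *Snap25*, a membrane protein of the vesicle fusion complex, was at 0.229, 0.106 and 0.24 CPM in WT NPCs and 0.828, 0.764 and 1.13 CPM in slow/slow NPCs. It reached 228, 203 and 194 CPM in WT neurons and 61.9, 60.3 and 58.4 CPM in slow/slow neurons. *Snap25* was thus higher in slow/slow cells before replating and lower after it, with no overlap at either stage, and its interaction was -4.03 ± 0.51 (FDR 1.82e-06). *Syt4*, a synaptotagmin, had an interaction of -3.59 and *Cplx2*, a complexin that clamps fusion, of -3.04. *Syn1*, which tethers vesicles, rose from 9.96 to 11.9 CPM in WT NPCs to 212 to 236 CPM in WT neurons, and from 14.5 to 15.5 CPM to 59 to 62.3 CPM in slow/slow cells. It overlaps *Araf* and *Timp1* on the other strand, and its value is uncertain to that extent. In neurons 17 of the 20 members were lower in slow/slow cells, against 28.4% of all genes, and 0 were higher, against 23.4%. In NPCs 7 were higher, against 29.3% of all genes, and 5 were lower, against 27.4%.

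Receptors and scaffolds of excitatory synapses followed the same course. Of 23 glutamate receptor, scaffold and adhesion genes tested, 15 were negative and 2 positive, with a median interaction of -1.45, or -1.28 when the 4 genes with a group at or under 3 counts per library were set to that floor. *Gria2*, a subunit of AMPA receptors, had 0 counts in each WT NPC library, 5, 10 and 4 counts in slow/slow NPC libraries, 118, 98.9 and 99.9 CPM in WT neurons and 50.9, 47.6 and 44 CPM in slow/slow neurons. Against a floor of 3 counts per library, it rose at least 2080-fold in WT cells, whereas it rose 355-fold in slow/slow cells. *Dlg2*, a scaffold protein, had an interaction of -3.23. The 2 positive members were *Gria3*, another AMPA receptor subunit, at 0.99 and *Nlgn2*, the neuroligin of inhibitory synapses, at 0.55. The call for *Gria3* was lost in 10 of the 12 fits without a single library, all but those without replicate 2 of slow/slow NPCs or replicate 1 of WT NPCs, at values of 0.93 to 1.18 over all alternatives.

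Inhibitory signalling showed 11 negative and 1 positive gene of 17, with a median interaction of -2.25, or -2.03 with 5 genes at the floor. Most of the negative members were subunits of GABA-A receptors. *Gabra5* was at 0.283 CPM in WT NPCs and 1.95 CPM in slow/slow NPCs on average, and at 30.2 and 4.85 CPM in neurons, with an interaction of -5.41. *Gabrb2* rose at least 769-fold in WT cells and 152-fold in slow/slow cells, and *Gabrg1* at least 75-fold and 1.31-fold. The positive member was *Slc32a1*, the vesicular transporter of GABA and glycine, at 2.04, with mean levels in neurons of 5.1 CPM for WT and 20.2 CPM for slow/slow. The GABA-synthesising enzymes *Gad1* and *Gad2* had interactions of -1.12 and -0.98, which were not called.

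Voltage-gated channels gave 11 negative and 1 positive gene of 16, with a median of -1.58. *Kcna1*, a potassium channel of axons, had an interaction of -5.24, and the sodium channel genes *Scn3a* and *Scn1a* had -3.06 and -2.97. The positive member was *Cacna2d1*, an auxiliary calcium channel subunit, at 0.67.

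In the neuronal cytoskeleton and growth list the genotypes crossed over for 8 of 18 members, which were higher in slow/slow NPCs and lower in slow/slow neurons. Of 15988 genes tested outside chromosome 15, 1458 did so with a called interaction. Of these 18 members, 15 were negative and 0 positive, with a median of -1.83. In NPCs 14 of the 18 were higher in slow/slow cells, against 29.3% of all genes, and in neurons 11 were lower, against 28.4%. *Dcx*, a microtubule protein of migrating neurons, was at 0.499, 0.0755 and 0.165 CPM in WT NPCs and at 1.15, 3.65 and 4.02 CPM in slow/slow NPCs. In neurons *Dcx* was at 1140, 1150 and 1060 CPM in WT cells and 1010, 998 and 935 CPM in slow/slow cells, and the difference of -0.19 between genotypes in neurons was not called (FDR 0.753). The interaction of -3.82 ± 0.93 (FDR 0.00165) for *Dcx* thus lay in the NPCs. *Gap43*, a protein of growth cones, differed at both stages, with 4.06, 3.76 and 4.66 CPM in WT and 16.3, 17.3 and 19.4 CPM in slow/slow NPCs, then 870, 769 and 775 CPM in WT and 383, 393 and 365 CPM in slow/slow neurons. Its interaction was -3.17 ± 0.32 (FDR 1e-07). The neurofilament genes *Nefh* and *Ina* had interactions of -3.92 and -3.42, while *Mapt*, which encodes tau, had 0.45 and was not called.

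Axon guidance genes gave 13 negative and 2 positive members of 20, with a median of -1.40. *Ntn1*, the secreted guidance cue netrin, was at 13.6, 12.6 and 11.7 CPM in WT NPCs and 65.7, 78.4 and 80.3 CPM in slow/slow NPCs, and at 777, 877 and 865 CPM in WT neurons and 264, 326 and 318 CPM in slow/slow neurons. Its interaction was -4.04 ± 0.51 (FDR 1.78e-06). *Sema3a*, a repulsive semaphorin, had -4.87 and *Robo2*, a receptor for Slit proteins, -3.71. The positive members were *Robo1* at 0.98 and *Efnb1* at 0.36. Neural splicing regulators gave 13 negative and 2 positive of 17, with a median of -1.05. *Celf4*, *Elavl4* and *Elavl2*, RNA-binding proteins of neurons, had -2.44, -2.34 and -1.80, and *Mbnl2* and *Qk* (the entry on chromosome 17) had 1.73 and 0.53. *Elavl4* was not lower in slow/slow neurons, with means of 1.0 and 6.21 CPM in WT and slow/slow NPCs and 189 and 230 CPM in the respective neurons. *Ptbp1*, the repressor of neural exons that progenitors express, fell from 633 to 314 CPM on average in WT cells and from 934 to 287 CPM in slow/slow cells.

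**Figure D3:**
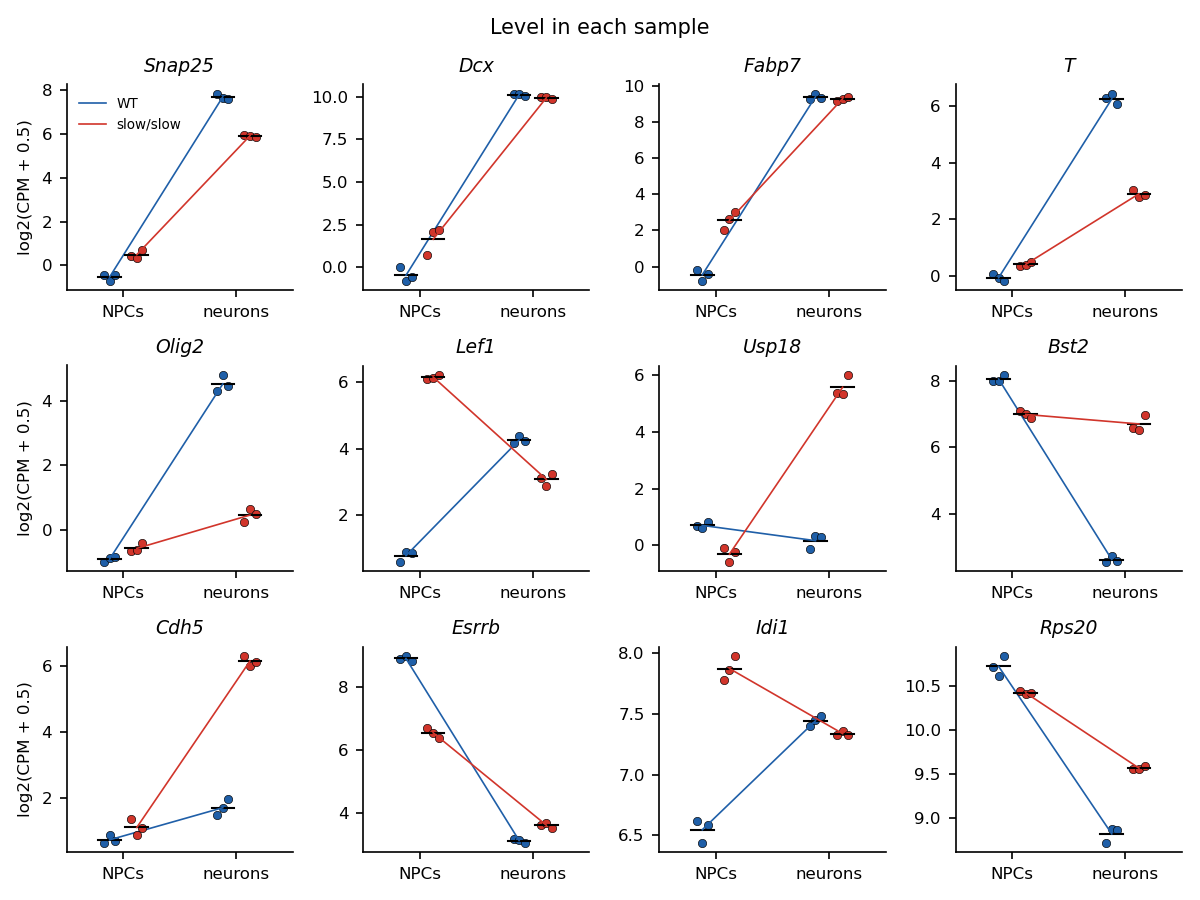
Level of 12 genes in each sample, as log2 of CPM plus 0.5, in NPCs and neurons of WT (blue) and slow/slow cells (red). Points are the 3 samples of a group, short black bars their means, and lines join the means of a genotype; *Snap25*, *Dcx*, *Fabp7*, *T* and *Olig2* rose more steeply in WT cells, and *Usp18* and *Cdh5* in slow/slow cells.

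Progenitor and early neuronal genes did not share the direction of the synaptic genes. Of 18 proneural and Notch pathway genes, 6 were positive and 5 negative, with a median interaction of 0.57, or 0.64 with 2 genes at the floor. In neurons 16 of the 18 were higher in slow/slow cells and 1 was lower, and 12 were already higher in NPCs. *Insm1*, a zinc finger factor of newborn neurons, was at 1.48, 1.39 and 1.51 CPM in WT NPCs and 30.9, 33.1 and 33 CPM in slow/slow NPCs. It then reached 22.6, 21.2 and 23.8 CPM in WT neurons and 66.4, 87.8 and 89.4 CPM in slow/slow neurons, so that it was higher in slow/slow cells at both stages but by less in neurons, and its interaction was -2.62 ± 0.34 (FDR 2.35e-06). *Nhlh1*, another transient factor of newborn neurons, reached 4.88 to 6.89 CPM in WT and 84.9 to 101 CPM in slow/slow cultures of neurons, with an interaction of 1.67 ± 0.64 (FDR 0.0334). The call for *Nhlh1* was lost without replicate 1 of WT NPCs, replicate 1 or 2 of slow/slow NPCs or replicate 1 of WT neurons, with values of 1.50 to 1.90 over all alternatives. *Neurod1* had 2.08 and *Notch1*, the receptor that keeps progenitors undifferentiated, 1.62.

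Radial glia and astrocyte genes gave 11 negative and 2 positive of 15, with a median of -1.06. *Fabp7*, a lipid-binding protein of radial glia, was at 0.395, 0.0755 and 0.255 CPM in WT NPCs and 3.53, 5.8 and 7.74 CPM in slow/slow NPCs, and at 627, 753 and 648 CPM and 583, 629 and 665 CPM in the respective neurons. The genotypes overlapped in neurons and not in NPCs, and the interaction was -4.71 ± 0.88 (FDR 0.000146). *Gfap* and *Tnc* had -4.53 and -2.92, and the group means of *Gfap* were at most 1.57 CPM. In the oligodendrocyte list 6 of 15 were positive and 3 negative. The negative members *Olig2*, *Olig1* and *Nkx2-2*, which are transcription factors that also specify ventral progenitors, had interactions of -6.75, -5.91 and -2.22. *Olig2* was at 0, 0.0453 and 0.06 CPM in WT NPCs and 0.129, 0.143 and 0.246 CPM in slow/slow NPCs, and reached 19.4, 27.5 and 21.5 CPM in WT neurons and 0.685, 1.06 and 0.904 CPM in slow/slow neurons. The positive members with the largest interactions were *Cldn11*, *Cspg4* and *Mag* at 4.42, 3.39 and 2.41. All were low, with group means of at most 3.94, 2.65 and 0.308 CPM.

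The lowest list median, -3.87, belonged to caudal and neuromesodermal genes, which mark the progenitors of spinal cord and trunk mesoderm. Of 16 members, 14 were negative and 1 was positive, and in neurons 15 were lower in slow/slow cells. *T*, the brachyury gene, was at 0.541, 0.438 and 0.375 CPM in WT NPCs and 0.763, 0.811 and 0.887 CPM in slow/slow NPCs, then at 77.2, 86.4 and 66.7 CPM in WT neurons and 7.63, 6.47 and 6.82 CPM in slow/slow neurons. Its interaction was -4.33 ± 0.30 (FDR 9.26e-10). *Cdx2*, a caudal homeobox factor, rose from 3.06 to 3.61 CPM to 48 to 54.5 CPM in WT cells, and stayed between 1.93 and 3.07 CPM in the 6 slow/slow libraries. *Nkx1-2*, a marker of the caudal progenitor zone, had the largest negative interaction of the protein-coding genes that reached 5 CPM in a group and exceeded 3 counts in all 4 groups, -9.41 ± 0.74 (FDR 4.56e-09). Its mean levels were 0.0748 and 52.1 CPM in WT and 6.74 and 6.95 CPM in slow/slow cells, and the gene overlaps *Fgfr2* on the same strand, so that its value is uncertain. *Cdx4* was under the floor in slow/slow neurons and at least 40.2-fold lower there than in WT neurons, and *Msgn1* at least 34.4-fold lower. *Cdx1* rose in WT cells and fell in slow/slow cells, with an interaction of -6.14. The positive member was *Gsc* at 1.15, and its call was lost, leaving 0 positive members, without replicate 1 of slow/slow neurons, replicate 2 or 3 of WT neurons or replicate 1 of slow/slow NPCs.

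Hox genes, which encode position along the trunk, gave 16 negative and 1 positive of 29 tested outside chromosome 15, with a median of -1.77, or -1.58 with 3 genes at the floor. A further 9 Hox genes lie on chromosome 15 and are not counted. *Hoxa10* was at 0.437, 0.573 and 0.555 CPM in WT NPCs and 8.54, 10.1 and 8.18 CPM in slow/slow NPCs, and at 1.15, 0.899 and 1.19 CPM in WT neurons and 0.357, 0.124 and 0.192 CPM in slow/slow neurons. The genotypes therefore changed places, with an interaction of -6.35 ± 0.85 (FDR 3.87e-06). *Hoxa9* and *Hoxb1* had -4.55 and -4.06, and *Hoxd8* was the positive member at 1.56.

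Factors of the dorsoventral axis of the neural tube moved in both directions. Of 23 tested, 10 were negative and 7 positive, with a median of -0.71. *Shh*, the ventral signal, was at 0 to 0.104 CPM in WT NPCs and 0.406 to 0.616 CPM in slow/slow NPCs, and at 145, 157 and 158 CPM in WT neurons and 27.4, 28.5 and 30.7 CPM in slow/slow neurons. Its interaction was -5.62 ± 0.65 (FDR 6.55e-07). The ventral factor *Nkx6-1* had -2.13. *Gsx1*, a factor of dorsal progenitors, took the opposite course, with 2.54, 3.03 and 2.47 CPM in WT and 1.24, 1.1 and 1.28 CPM in slow/slow NPCs, and 0.982, 1.11 and 0.934 CPM in WT and 25.6, 26.2 and 27.9 CPM in slow/slow neurons. Its interaction was 5.87 ± 0.60 (FDR 1.49e-07). The dorsal factors *Gsx2*, *Pax3* and *Pax7* had 3.41, 3.16 and 3.04. *Pax3* and *Pax7* averaged 81.2 and 34.9 CPM in slow/slow neurons. *Gsx2* was low throughout, and fell from 0.712 to 0.112 CPM on average in WT cells, with 0.283 and 0.451 CPM in slow/slow NPCs and neurons. Dorsal genes also stood among the negative ones, so the list did not split into dorsal and ventral by direction. *Olig3* had -4.44, and was at 75.4 CPM in slow/slow NPCs and at most 3.86 CPM in the other groups on average. *Zic1*, *Msx1* and *Gdf7*, which are also dorsal, had -2.63, -2.42 and -0.94. Hedgehog pathway genes as a list were split 3 to 3 over 11.

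Factors from forebrain to hindbrain gave 11 negative and 5 positive of 24. *Six6*, *Egr2* and *Dlx5* had -5.39, -3.96 and -3.52, and *Lhx2*, *Emx1* and *Otx1* had 4.06, 3.49 and 3.48. Of these *Dlx5*, *Emx1* and *Otx1* were low, with group means of at most 1.94, 1.02 and 1.68 CPM. *Lhx2* was at 1.68 to 3.81 CPM in all NPCs and at 4.2 to 5.92 CPM in WT neurons, and reached 39.8 to 48 CPM in slow/slow neurons. In the list of neuronal subtype factors, 11 were positive and 7 negative of 30, and in neurons 19 were higher in slow/slow cells. *Th*, the enzyme that makes the dopamine precursor, was at 0.476 to 0.562 CPM in WT neurons and 8 to 9.58 CPM in slow/slow neurons, with an interaction of 5.54 ± 0.71 (FDR 2.09e-06).

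Signalling pathways were mixed. In the retinoic acid list 8 of 17 were negative and 5 positive. *Crabp1*, a cytoplasmic carrier of retinoic acid, rose from 26.1 to 28 CPM to 60.5 to 83.5 CPM in WT cells and fell from 374 to 633 CPM to 175 to 217 CPM in slow/slow cells. *Cyp26b1*, an enzyme that degrades retinoic acid, rose to 23.3 to 27.4 CPM in WT neurons and to 497 to 567 CPM in slow/slow neurons, with interactions of -2.80 for *Crabp1* and 2.36 for *Cyp26b1*. In the Wnt list 8 of 17 were negative and 3 positive. *Lef1*, a transcription factor of the pathway and also a target of it, was at 0.998, 1.36 and 1.3 CPM in WT NPCs and 69, 70.4 and 74.5 CPM in slow/slow NPCs, then at 17.6, 20.2 and 18.4 CPM in WT neurons and 8.16, 6.86 and 8.93 CPM in slow/slow neurons. *Lef1* thus rose in WT cells and fell in slow/slow cells, with an interaction of -7.09 ± 0.59 (FDR 1.06e-08). The BMP and TGF-beta list was split 8 positive to 6 negative over 23, with *Bmp5* at 3.90 and *Tgfb2* at -2.97.

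The list furthest from the other genes in the positive direction was that of interferon-stimulated genes, which cells switch on when interferon receptors signal. Of 25 members, 23 were positive and 0 negative, against 23.9% and 31.1% of all genes, and the median interaction was 5.28, or 5.25 with 3 genes at the floor. The same 23 and 0 were counted in each fit without a single library. In WT cells 13 members fell and 1 rose, and in slow/slow cells 22 rose and 0 fell. *Usp18*, a protease that removes the ubiquitin-like protein ISG15, was at 1.1, 1.04 and 1.27 CPM in WT NPCs, 0.44, 0.167 and 0.345 CPM in slow/slow NPCs and 0.414, 0.754 and 0.741 CPM in WT neurons. In slow/slow neurons it was at 40.9, 40.2 and 64.1 CPM, far above all other samples, and its interaction was 8.01 ± 1.40 (FDR 7.56e-05). *Isg15* itself was between 0.202 and 0.802 CPM in the other 9 samples and at 11.1, 11 and 15.6 CPM in slow/slow neurons. *Oasl2*, a 2'-5'-oligoadenylate synthetase-like protein, had the largest positive interaction by the same rule, 10.23 ± 0.97 (FDR 5.41e-08). It fell from 25.2, 29.5 and 29.3 CPM to 0.322, 0.273 and 0.414 CPM in WT cells and rose from 1.84, 1.48 and 1.4 CPM to 20.5, 20.3 and 29.7 CPM in slow/slow cells.

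*Bst2*, the antiviral membrane protein tetherin, differed from these in that it was high in all NPCs, with 255 to 293 CPM in WT and 119 to 136 CPM in slow/slow cells. It fell to 5.28, 6.08 and 5.44 CPM in WT neurons, and stood at 96.2, 92.7 and 127 CPM in slow/slow neurons, with an interaction of 5.31 ± 0.29 (FDR 5.97e-11). Among the regulators, *Irf9* and *Stat2*, which form a transcription factor complex downstream of the interferon receptor, had 2.28 and 1.12. *Rtp4*, with 7.82, overlaps *Masp1* on the other strand and is uncertain. The genes of the interferons were too low to be tested and were looked at after these values had been seen. *Ifnb1* had 0, 0 and 1 counts in WT and 2, 1 and 0 counts in slow/slow neurons. *Ifnk*, another type I interferon gene, had 0 counts in each WT neuron library and 6, 4 and 4 counts in slow/slow neurons, with 2, 1 and 7 counts in WT NPCs and 1, 3 and 3 counts in slow/slow NPCs. Of 11 MHC class I presentation genes, 7 were positive and 0 negative, with a median of 0.80. *B2m*, the invariant chain of MHC class I, fell in WT cells from 124 to 151 CPM to 19.9 to 24.2 CPM, and stood at 35.9 to 39.6 CPM in slow/slow NPCs and 42.2 to 50.3 CPM in slow/slow neurons, with an interaction of 2.95 and an overlap with *Patl2* on the other strand.

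Promoter stretches of 5 members are shown because genes of this list moved together and a response element is known for interferon-stimulated genes. In RefSeq windows of the GRCm38.p6 build, from 250 bases before to 50 after the transcription start, the letters GAAANNGAAA, which form the core of the interferon-stimulated response element, were searched on both strands, with overlapping matches counted. A match stood in 9 of 16 list members with a window, which is 56.2%, and in 3.4% of 11429 tested genes with a window. The list was made of genes known to respond to interferon. The higher share thus comes with the choice of the list and says nothing further about these data. List members without a window, such as *Usp18* and *Mx1*, were not searched. Capitals mark the fixed letters of a match, which appear as their reverse complement when the match is on the opposite strand. A match is a description of the letters and not a measured binding site.
Ifit1, chr19:34640760-34640819, plus strand: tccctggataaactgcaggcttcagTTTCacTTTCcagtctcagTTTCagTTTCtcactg
Isg15, chr4:156200862-156200921, minus strand: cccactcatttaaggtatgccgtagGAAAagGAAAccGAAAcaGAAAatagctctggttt
Bst2, chr8:71537568-71537627, minus strand: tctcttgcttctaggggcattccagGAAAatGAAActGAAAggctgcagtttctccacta
Oas1a, chr5:120907511-120907570, minus strand: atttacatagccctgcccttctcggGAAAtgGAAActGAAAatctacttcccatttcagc
Rsad2, chr12:26456538-26456597, minus strand: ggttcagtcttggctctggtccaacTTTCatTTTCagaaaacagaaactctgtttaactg

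Beside these stretches, the interactions of *Ifit1*, *Isg15*, *Oas1a* and *Rsad2* were 7.25, 5.25, 7.06 and 7.23. In *Isg15* 3 overlapping matches followed each other, and *Bst2*, whose interaction was 5.31, and *Oas1a* held 2 each. The windows of *Oasl2*, *Irf7*, *Irf9*, *Ifi35*, *Xaf1*, *Oasl1* and *Ifit2* held no match.

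Markers of other cell types also moved with genotype, and in bulk RNA fewer cells of a type and less RNA per cell cannot be told apart. Of 12 endothelial, blood and microglial genes tested, 8 were positive and 1 negative, with a median interaction of 3.29, or 3.25 with 2 genes at the floor. Their summed level was 106 to 111 CPM in WT NPCs, 52.1 to 65.5 CPM in slow/slow NPCs, 16 to 19.5 CPM in WT neurons and 139 to 177 CPM in slow/slow neurons. *Cdh5*, the cadherin of endothelial junctions, was at 2.29, 2.73 and 3.39 CPM in WT neurons and 78.3, 63.6 and 69.5 CPM in slow/slow neurons, with 1.06 to 2.06 CPM in all NPCs and an interaction of 4.12 ± 0.46 (FDR 4.48e-07). *Tie1*, an endothelial receptor, fell in WT cells from 3.12 to 3.68 CPM to 0 to 0.077 CPM and rose in slow/slow cells from 0.592 to 0.919 CPM to 8.23 to 12.3 CPM, with an interaction of 9.67 ± 0.54 (FDR 6.35e-11). *Pecam1*, which ESCs also express, had 5.91. The markers of leukocytes and microglia *Ptprc*, *Aif1*, *Cx3cr1* and *Tyrobp* were too low to be tested, with at most 3 counts in any slow/slow neuron library. *Csf1r* and *Itgam*, further leukocyte and microglial genes of this list, were tested, with interactions of 3.66 (FDR 0.0449) and -2.12 (FDR 0.0321). *Csf1r* averaged 0.741 CPM in WT neurons, against 5.0 CPM in the mutant ones. For *Itgam* these means were 0.332 and 0.235 CPM, and its call was lost in 7 alternatives. Of the 8 positive members *Csf1r* had the FDR nearest to the threshold. The list had 7 positive members in each fit without a single library, except 8 without replicate 1 of WT NPCs. The part of vascular cells in the other interactions was not tested.

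Mesenchymal and matrix genes gave 10 positive and 2 negative of 22 collagen and matrix genes, with a median of 0.91. *Lum*, a proteoglycan of connective tissue, was at 0 to 0.146 CPM in all NPCs, at 0.691, 0.722 and 0.78 CPM in WT neurons and at 34.8, 34.5 and 34 CPM in slow/slow neurons, with an interaction of 7.25 ± 1.00 (FDR 8.42e-06). *Col6a2* fell in WT cells from 19.7 to 20.6 CPM to 2.99 to 3.64 CPM and rose in slow/slow cells from 6.78 to 7.67 CPM to 30.8 to 31 CPM, with an interaction of 4.73. *Col1a2* had 4.16. Muscle and mesenchyme genes were split 8 to 5 over 19, with *Tnnt2*, *Pdgfrb* and *Myog* at 6.88, 4.69 and 4.47 and *Meox1*, *Myh11* and *Tagln* at -3.90, -2.68 and -1.43. Group means of *Tnnt2*, *Myog* and *Myh11* were at most 1.51, 0.508 and 1.81 CPM. The neural crest and peripheral glia list gave 9 positive and 2 negative of 13, with *Erbb3* and *Tcfap2c* at 3.97 and 3.44, and *Gap43* and *Tcfap2b* were its negative members. Their part in the other results was not tested.

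Endoderm genes gave 9 positive and 1 negative of 18, with a median of 1.07. The fetal liver and yolk sac gene *Afp* had 1, 3 and 0 counts in WT neurons and 9.16, 7.83 and 11.8 CPM in slow/slow neurons, which is at least 234-fold higher against the floor. *Hnf4a* and *Ttr* had 3.94 and 3.10, and *Amn* was negative at -1.69. The summed level of the endoderm list was 75.6 to 87.8 CPM in WT and 78.4 to 106 CPM in slow/slow neurons, so the neuron groups overlapped in the sum. Epithelial genes gave 8 positive and 0 negative of 12, with *Cldn4*, *Cldn3* and *Krt19* at 3.93, 3.66 and 2.89. All 12 fell in WT cells and 8 in slow/slow cells. *Cldn4* fell from 341 to 362 CPM to 10.1 to 13.8 CPM in WT cells, whereas its values of 45.2 to 59.9 CPM in NPCs and 24.2 to 27.4 CPM in neurons of slow/slow cells gave a change of -1.01 that was not called.

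Of 23 pluripotency genes, 23 fell in slow/slow cells, while 20 fell and 2 rose in WT cells. Of these genes 11 had a positive and 8 a negative interaction, and the median log2 changes were -4.79 in WT and -3.54 in slow/slow cells. *Esrrb*, a nuclear receptor of the naive pluripotent state, fell from 474, 506 and 454 CPM to 8.49, 8.31 and 7.7 CPM in WT cells and from 104, 91.7 and 83.2 CPM to 11.8, 12.2 and 11 CPM in slow/slow cells, with an interaction of 2.88 ± 0.19 (FDR 3.62e-10). *Dppa3* and *Dppa5a* had 5.78 and 3.64, and *Nanog* had 2.25. Among the negative members *Lin28a* and *Lin28b*, inhibitors of let-7 microRNA processing, had -2.53 and -2.34, the formative gene *Fgf5* had -3.06, and *Dnmt3b*, a DNA methyltransferase, had -1.91. *Dnmt3b* was at 256 to 260 CPM in WT NPCs and 798 to 898 CPM in slow/slow NPCs, and at 83 to 105 CPM and 77.2 to 82.3 CPM in the respective neurons, where the genotypes did not overlap but the difference was not called (FDR 0.667).

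Mitosis genes fell in both genotypes, 20 of 20 in WT and 19 of 20 in slow/slow cells. Of these 20 mitosis genes, 11 were positive and 0 negative, with a median of 0.66, and in neurons 16 were higher in slow/slow cells. With the 12 samples fitted alone, which raised the calls over all genes from 9161 to 11801, all 20 were positive. Without any single library 10 to 13 were positive. *Ccnb2*, a mitotic cyclin, fell from 176 to 188 CPM to 28.1 to 34.3 CPM in WT cells and from 150 to 166 CPM to 63.2 to 70.2 CPM in slow/slow cells, with an interaction of 1.26 ± 0.14 (FDR 2.56e-07). *Cenpf* and *Aurkb* had 1.04 and 1.00. Of 20 DNA replication genes, 2 were positive and 3 negative, and the median of -0.02 turned to 0.16 with upper-quartile scaling. *Tyms*, the enzyme that makes thymidylate, was the lowest at -1.71, with 39.2 to 43.1 CPM in WT and 99.3 to 99.9 CPM in slow/slow NPCs and 32.7 to 40.4 CPM and 26 to 29 CPM in the respective neurons.

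Of 42 cytoplasmic ribosomal protein genes tested, 39 fell in WT and 38 in slow/slow cells. The interaction showed a smaller fall in slow/slow cells for most, since 32 were positive and 2 negative, with a median of 0.60, which was 0.78 with upper-quartile scaling. *Rps20* fell from 1680, 1570 and 1840 CPM to 419, 470 and 464 CPM in WT cells and from 1390, 1360 and 1370 CPM to 751, 753 and 769 CPM in slow/slow cells, with an interaction of 1.05 ± 0.13 (FDR 1.71e-06). The negative members were *Rpl15* at -0.92 and *Rpl24* at -0.56, and *Rpl24* lost its call in 13 alternatives, among them RLE and upper-quartile scaling and DESeq2, which left 1 negative member. Ribosomal protein genes have many near-identical copies in the genome, and the low level of some, such as *Rps12* at 1.49 CPM in WT NPCs, marks their counts as uncertain.

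Most cholesterol synthesis genes were higher in slow/slow NPCs and fell there on replating. Of 18 tested, 16 were negative and 0 positive, with a median of -0.84. Their median log2 change was 0.29 in WT cells and -0.64 in slow/slow cells, and 9 rose in WT cells, while 16 fell in slow/slow cells. In NPCs 15 of the 18 were higher in slow/slow cells. *Idi1*, an isomerase early in the pathway, was at 97.4, 86 and 95.5 CPM in WT NPCs and 220, 232 and 252 CPM in slow/slow NPCs, and at 169, 174 and 178 CPM in WT neurons and 160, 164 and 160 CPM in slow/slow neurons. The genotypes were far apart in NPCs, while the difference of -0.11 in neurons was not called, and the interaction of *Idi1* was -1.44 ± 0.17 (FDR 8.96e-07). *Hsd17b7*, a reductase of the later pathway, had -1.49.

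Genes of the unfolded protein and amino acid responses gave 10 negative and 0 positive of 18, with a median of -0.39. *Hspa5*, the main chaperone of the endoplasmic reticulum, rose from 392 to 420 CPM to 540 to 595 CPM in WT cells and fell from 663 to 701 CPM to 454 to 485 CPM in slow/slow cells. *Slc7a11*, *Psat1* and *Atf5* had -2.32, -1.62 and -1.58. The p53 target list gave 7 negative and 1 positive of 18, with a median of -0.43, and in neurons 14 of the 18 were lower in slow/slow cells. *Ccng1*, a cyclin induced by p53, rose from 340 to 395 CPM to 658 to 746 CPM in WT cells and fell from 451 to 470 CPM to 322 to 352 CPM in slow/slow cells, with an interaction of -1.37 ± 0.14 (FDR 1.13e-07). *Fas*, a death receptor, and *Pmaip1*, a promoter of apoptosis, had -3.54 and -2.29, and *Sesn1* was positive at 0.51.

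Oxidative phosphorylation genes gave 7 negative and 1 positive of 18, which became 3 and 2 with upper-quartile scaling. Glycolysis and hypoxia genes gave 6 positive and 4 negative of 21, with *Adm* and *Car9*, both known hypoxia targets, at 3.86 and 2.51 and *Egln3*, *Slc2a1* and *Eno1* at -1.51, -1.41 and -1.10. The 4 negative genes became 2 with upper-quartile scaling and without replicate 2 of slow/slow NPCs. *Eno1* lost its call in 7 alternatives. Low levels of some members mark their counts as uncertain, such as *Gapdh* and *Pgam1* with group means of at most 0.137 and 4.46 CPM. Immediate early genes, which neurons switch on with activity, were split 5 negative to 3 positive over 15. *Nr4a3*, an orphan nuclear receptor, rose from 0.392 to 0.645 CPM to 28.1 to 34.4 CPM in WT cells and from 1.64 to 2.78 CPM to 10.6 to 11.8 CPM in slow/slow cells, with an interaction of -3.42. *Egr1* fell from 24.4 to 29.8 CPM to 10.4 to 13.4 CPM in WT cells and rose from 20.4 to 28.1 CPM to 53.9 to 55.2 CPM in slow/slow cells, with an interaction of 2.30. *Junb*, which overlaps *Prdx2* on the other strand, had 2.74.

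Genes of the transcription machinery itself had smaller interactions. Of 10 RNA polymerase II subunit genes outside chromosome 15, 5 were negative and 2 positive, with *Polr2l* and *Polr2a* at -1.35 and -1.24 and *Polr2e* and *Polr2c* at 0.61 and 0.38. The negative count was 3 with upper-quartile scaling and without replicate 2 of slow/slow NPCs. Of 28 elongation and termination factors, 14 were negative and 4 positive, and these became 7 and 8 with upper-quartile scaling. *Cdk12*, a kinase of the polymerase tail that is needed for long genes, was at 48.4, 55 and 50.6 CPM in WT NPCs, 72.7, 73.7 and 79 CPM in slow/slow NPCs, 61.9, 65.5 and 64.5 CPM in WT neurons and 37.8, 39.8 and 36.5 CPM in slow/slow neurons. Its genotype difference turned from higher to lower, with an interaction of -1.30 ± 0.17 (FDR 3.56e-06). *Hexim1* and *Ell2* had -1.02 and -0.86, and *Tcea2*, *Aff1* and *Ctr9* had 1.16, 0.82 and 0.60.

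Interactions also differed with the length of the gene. Genes spanning up to 10 kb had a median interaction of -0.05, those of 10 to 50 kb of -0.07, those of 50 to 200 kb of -0.18, those of 200 to 500 kb of -0.43 and the 203 genes over 500 kb of -1.17. Of these longest genes, 49.8% were negative and 11.8% positive, while among genes up to 10 kb 27.4% were negative and 24.3% positive. Of these 5 classes the longest genes also had the highest median change from NPCs to neurons, 4.29 in WT and 3.04 in slow/slow cells, so gene span and neuronal induction cannot be told apart in these medians. In NPCs their median genotype difference was 0.30 and in neurons -0.80. By GC content of the longest annotated transcript of the gene, the median rose from -0.25 in the lowest quartile to 0.06 in the highest. Upper-quartile scaling moved the median of the longest genes to -0.98.

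**Figure D4:**
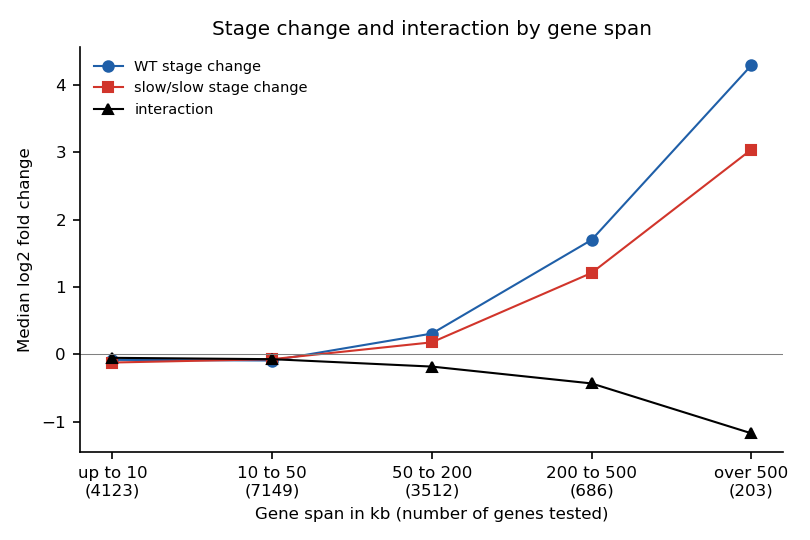
Median log2 change from NPCs to neurons in WT cells (blue circles) and slow/slow cells (red squares), and median interaction (black triangles), over genes tested outside chromosome 15 in 5 classes of gene span in kb. The medians of the interaction fell from -0.05 in the shortest to -1.17 in the longest genes.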

How the data were processed

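Libraries of poly(A)+ RNA were read from both ends. The authors aligned them to mm9 and deposited, for each gene and sample, the raw counts that vast-tools gave. Use of the strand in counting is not given in the sources used here, so overlapping genes are named as uncertain. Deposited splicing values, mean RPKM values, fold changes and FDR values of the authors were not used, and 0 columns of counts were left out.

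All 24 samples entered a single model of 8 groups in edgeR 4.0.16 (R 4.3.3), after filterByExpr (16627 of 21553 genes with counts) and TMM scaling, and the interaction contrast was tested by the quasi-likelihood F test with 16 residual degrees of freedom and a Benjamini-Hochberg FDR under 0.05. The scripts were tested on simulated data. SEs were derived from the F statistic. Replicates are separate samples per the labels, and their p-values measure the spread between samples of a genotype and stage. Coordinates and overlaps came from GENCODE on GRCm38, matched by identifier for 16312 genes tested. The members of the 39 gene lists, the rules and the tests were chosen with earlier results of these data known. Named in the lists were up to 3 called genes per direction with the largest interaction, and further members were chosen after their values were seen. Lists are described by counts and medians, beside those of all genes. Groups with at most 3 counts in every library were set to that floor for folds, which covers counting error only. Alternatives were RLE and upper-quartile scaling, TMM without chromosome 15, DESeq2 1.42.0, other filters, thresholds, samples, the replicate number as a block, and leaving out each library. Some genes that the rule names are not reported here.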

Additional observations from a re-analysis of the deposited data

Results flagged for a closer look

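The stage change differed between the genotypes, by the test of the interaction itself, for 9161 genes. The 24 largest interactions, in equal numbers per direction, were taken from called protein-coding genes outside chromosomes 15 and Y. These genes reached 5 CPM in a group, exceeded 3 counts in all 4 groups and kept their call without any single library. Larger interactions that did not meet these terms, such as -10.79 for *Cdx4*, are not among them. Of the 24 genes, 11 were called in opposite directions in the genotypes, with both changes past the threshold. *Oasl2* (10.23), *Tie1* (9.67), *Lamc3* (7.73) and *Pcdh12* (7.17) fell from NPCs to neurons in WT cells and rose in slow/slow cells. *1500015O10Rik* (-8.26), *Lef1* (-7.09), *Hes3* (-7.05), *Wnt8a* (-6.93), *Fam184b* (-6.83), *Vrtn* (-6.51) and *Cdx1* (-6.14) rose in WT cells and fell in slow/slow cells. *Wnt8a*, a Wnt ligand, was at 3.45 to 4.16 CPM in WT NPCs, 67.1 to 81.4 CPM in slow/slow NPCs, 13.9 to 21.2 CPM in WT neurons and 2 to 3.98 CPM in slow/slow neurons. Groups of 3 samples were not examined for single deviating samples.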

How the results depend on the processing

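The count of 9161 interactions lay between 8458 and 8690 without any single library, and between 7082 (FDR under 0.01) and 11801 (only the 12 samples) under the other alternatives, except that a 2-fold minimum left 4938, 2697 positive and 2241 negative. The share of positive calls was 44.9%, and 57.3% with upper-quartile scaling. The chromosome 15 median of 0.42 was 0.47 with RLE and with DESeq2, 0.50 with the 12 samples alone, with or without the replicate block within genotype, and 0.61 with upper-quartile scaling. The median of genes over 500 kb, -1.17, was -0.98 with upper-quartile scaling and between -1.19 and -0.99 without any single library. Same-numbered samples did not deviate together, with correlations between -0.0841 and 0.0706, and samples were not paired by replicate number. These correlations cannot settle whether same-numbered samples came from the same differentiation experiment. The replicate block gave 9382 calls, 9100 of them shared. For the 205 genes named by rule, 4206 of 4301 recomputed interactions kept direction and call, 95 lost the call and 0 changed sign. The 17 genes that lost it at least once were *Fbn1* (16 alternatives), *Cdon* (15), *Rpl24* (13), *Gria3* (10), *Eno1* and *Itgam* (7 each), *Sox9* (5), *Gsc* and *Nhlh1* (4 each), *Egr4* and *Fen1* (3 each), *Efnb1* and *Msgn1* (2 each), and *Cldn4*, *Erbb3*, *Rsad2* and *Rtp4* (1 each, DESeq2). The cause of these shifts was not tested. Genes under the count filter, such as those of the interferons, had too few counts at this depth to be tested.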
